A study of Mus musculus with 22 samples.

Results

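Promoter Oct4 peaks, as described here, were the peaks of an Oct4 ChIP-seq whose summit lay at most 1000 bp from a start of a protein-coding gene. They were selected on the peak calls themselves: every entry of the wild-type and of the knockout peak list on chromosomes 1 to 19 was measured to the nearest transcript start, and bins of 1 Mb that held 20 or more summits in either list, 19 bins in all, were left out. Of 2840 wild-type peaks outside those bins 154 were promoter peaks, and of 4828 knockout peaks 229 were. In the whole lists there were 5455 and 7479 peaks, of which 3888 and 5794 lay on chromosomes 1 to 19. The wild-type promoter peaks marked 153 genes and the knockout promoter peaks 223 genes, which is 0.743% and 1.08% of 20589 protein-coding genes with a start outside the dense bins.

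ChIP-seq was done on frozen aorta, from the root and arch to the carotid bifurcation, of Oct4-WT/WT and Oct4-KO/KO mice after 18 weeks of Western diet, 15 mice per genotype and 1 ChIP sample per genotype. Both genotypes were apoE-deficient male C57BL/6 mice that carried the tamoxifen-inducible Myh11-CreERT2 transgene, which lies on the Y chromosome and acts in smooth muscle cells (SMC), and the Rosa-eYFP lineage reporter, and both received tamoxifen before the diet. They differed in their Oct4 alleles, which were deleted in SMC of the knockout (SMC-Oct4Δ/Δ) and wild-type in the littermate controls (SMC-Oct4+/+). The tissue was a mixture of cell types and the deletion was confined by its Cre to SMC, so other cells of the knockout aorta kept their Oct4 gene, and a peak cannot be assigned to a cell type. With 1 sample per genotype the spread between replicates is not known and no test of genotype was made: the exact 95% binomial intervals below cover counting error over peaks of 1 sample, and peaks are not replicates.

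Oct4, encoded by Pou5f1, is a POU domain transcription factor that is best known for keeping embryonic stem cells pluripotent and that binds the octamer ATGCAAAT, often beside a site for Sox2. A promoter is the stretch of DNA around the start of a gene where general factors and RNA polymerase assemble, and many promoters of widely used genes hold a CCAAT box, bound by the trimeric factor NF-Y, and a high content of CpG. Short interspersed elements are copies of small RNA genes scattered through introns and flanks. Mouse B1 and primate Alu descend from 7SL RNA, the RNA of the signal recognition particle. The words AATCCCAG and GAGGCTGA each occur in some of these sequences, and need not both mark B1.

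The sequences shown are those around wild-type promoter summits that no knockout peak overlapped, because many of these had a CCAAT box within 40 bp, close to the start of a gene. They are from GRCm38 in the RefSeq assembly, around the wild-type summit, and read 5′ to 3′ on the strand that spells the word. Of these, 6 windows of 81 bp are shown, and 2 of 30 bp where the window touched an untranslated region, at Hist1h2bj/Hist1h2ag (chr13:22043094-22043174, plus strand), Zswim4 (chr8:84237226-84237306, plus strand), Atp5b (chr10:128083047-128083127, plus strand), Dnm2 (chr9:21424823-21424903, plus strand), Rnf5/Agpat1 (chr17:34603718-34603798, minus strand), Ppm1b (chr17:84957492-84957572, plus strand), H3f3b (chr11:116024654-116024683, minus strand) and Flad1 (chr3:89411905-89411934, minus strand). Capitals mark each CCAAT on the strand shown, and some of these lie outside the called peak.
Hist1h2bj/Hist1h2ag: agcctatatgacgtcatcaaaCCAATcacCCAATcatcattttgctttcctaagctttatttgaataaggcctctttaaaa
Zswim4: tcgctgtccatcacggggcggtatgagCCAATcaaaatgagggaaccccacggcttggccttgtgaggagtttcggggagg
Atp5b: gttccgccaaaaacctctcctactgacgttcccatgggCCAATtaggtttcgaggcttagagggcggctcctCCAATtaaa
Dnm2: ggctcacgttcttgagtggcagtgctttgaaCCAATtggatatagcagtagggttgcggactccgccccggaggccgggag
Rnf5/Agpat1: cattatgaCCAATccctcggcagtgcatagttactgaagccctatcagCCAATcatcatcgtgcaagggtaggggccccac
Ppm1b: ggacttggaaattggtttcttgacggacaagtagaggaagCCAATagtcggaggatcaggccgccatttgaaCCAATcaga
H3f3b: cctgaacaccggCCAATcaggaaacggccc
Flad1: cagccaaaataaCCAATcaacatgaagcat

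The exact octamer was rare, and is shown at H3f3b (chr11:116024560-116024589, minus strand), where it lay within 100 bp of a wild-type summit but outside the called peak, with ATGCAAAT in capitals.
H3f3b: gtcgttggtgtATGCAAATcagggttctgt

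Many of these summits lay near the start of a transcript that is not itself protein-coding, which limits the name promoter peak. The distance rule took the start of every transcript of a protein-coding gene, including retained introns and processed transcripts, and 94 of 154 wild-type members (61.0%, interval 52.9 to 68.8) and 122 of 229 knockout members (53.3%, interval 46.6 to 59.9) were within 1 kb of a transcript that is itself protein-coding. Introns held 97 wild-type summits (63.0%) and 154 knockout summits (67.2%), sequence outside genes held 37 and 40, untranslated regions 11 and 11, coding exons 5 and 5, and exons of non-coding transcripts 4 and 19. Median GC content within 100 bp of the summit was 47.8% (wild-type) and 46.8% (knockout), against 50.2% in windows tiled over all promoters. The median ratio of observed to expected CpG was 0.235 and 0.169, against 0.326 in the tiled promoter windows, and a median of 46.3% and 47.3% of the bases were repeat-masked, against 9.95%. At other peaks of the same lists the medians were 43.8% and 43.3% GC and 54.7% and 50.7% masked.

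Members lay on both sides of the start. In the wild-type 97 of 154 summits were upstream (63.0%, interval 54.8 to 70.6), and 47 were within 250 bp of the start, 30 between 251 and 500 bp, 40 between 501 and 750 bp and 37 beyond that. In the knockout 120 of 229 were upstream (52.4%, interval 45.7 to 59.0), and the same classes held 50, 55, 64 and 60. The nearest wild-type summits to a start were those of Vdac3, a mitochondrial outer membrane channel, 3 bp upstream, Cdc27/Myl4, 12 bp downstream, Zrsr1/Commd1, 17 bp upstream, and Flad1 and Cdca2/Kctd9, each 36 bp away. In the knockout they were Nipal3 (7 bp), Hinfp (11 bp), Actb and Cdc27/Myl4 (13 bp each) and Acsl6 (14 bp). No protein-coding transcript started within 1 kb of the summits of Vdac3, Zrsr1/Commd1, Nipal3, Hinfp, Actb and Acsl6. Just inside the limit were Sned1 at 999 bp and Pdzph1 at 995 bp in the wild-type, with 11 and 10 fragments, and Ddx47 at 1000 bp and Sned1 at 995 bp in the knockout, with 9 fragments each. Just outside were Pdcd11 at 1001 bp and Stx12 at 1020 bp in the wild-type, with 12 and 35 fragments, and Pdzph1 at 1001 bp and Pdcd11 at 1003 bp in the knockout, with 19 and 18. Pdzph1 was thus counted for the wild-type alone although its peaks overlapped.

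**Figure D1:**
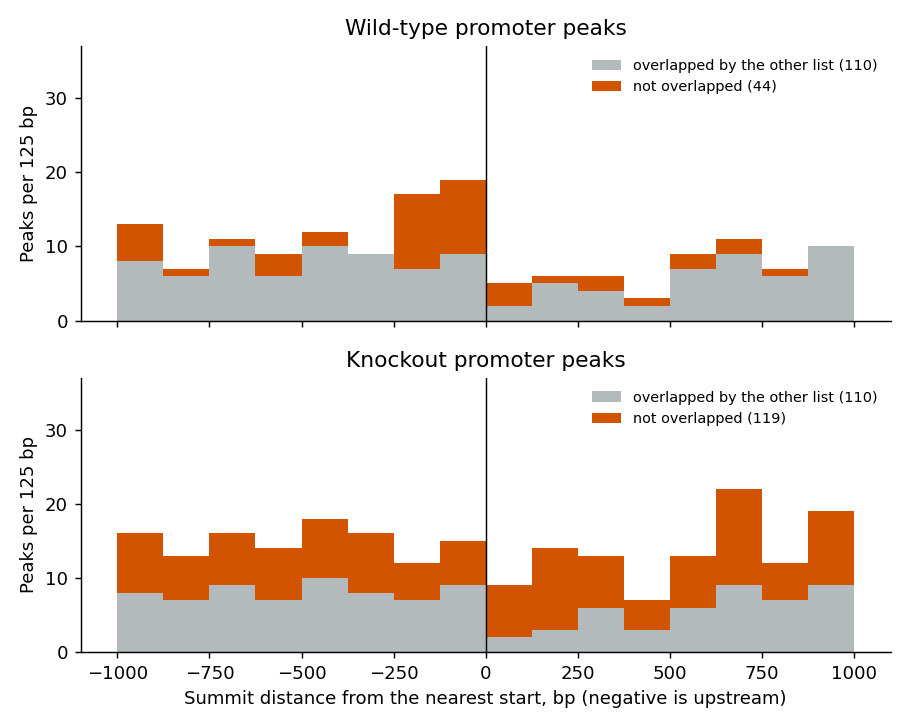
Number of promoter peaks in each 125 bp of distance from the nearest start, upstream negative, for the wild-type (top) and the knockout (bottom), with peaks overlapped by the other list in grey and the others in orange. In the wild-type 24 of 44 peaks that were not overlapped lay within 250 bp of a start, and in the knockout 29 of 119 did.

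Over all members, both genotypes gave promoter peaks of like median height. The deposited fold enrichment moved in equal steps, so the number of fragments over each summit could be recovered: every fold equalled the fragments plus 1, divided by 1 expected pileup plus 1, with the same pileup for all peaks of a list (wild-type 0.458, knockout 0.462). Wild-type promoter summits held 5 to 82 fragments with a median of 11, and knockout summits 5 to 78 with a median of 11. The knockout median was higher within each part of the lists. Overlapped members had medians of 12.5 (wild-type) and 16 (knockout) fragments, and members not overlapped 8.5 and 10. The median fold enrichment was 8.23 (quartiles 6.86 and 10.3) and 8.21 (quartiles 6.84 and 11.6), and at other peaks of the lists the medians were the same values. The highest counts, 82 and 78, were 2 times the narrowest peak widths of 41 and 39 bp, and 3 promoter peaks in each list stood at them.

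Genes marked in both lists numbered 113, which is 73.9% of the wild-type genes and 50.7% of the knockout genes. The wild-type alone marked 40 and the knockout alone 110. With 1 start per gene in place of every transcript start, 37 genes were in both, 28 in the wild-type alone and 31 in the knockout alone. That setting gave 64 wild-type and 67 knockout promoter peaks, and 33 of the 64 (51.6%) were overlapped. The values that follow are for every transcript start. For 112 of the 113 shared genes the peaks overlapped as well, and the other was the gene model 4931408C20Rik, where 2 wild-type and 3 knockout peaks lay side by side. Of 154 wild-type promoter peaks 44 had no overlapping knockout peak (28.6%, interval 21.6 to 36.4), where 19.8% of all wild-type peaks outside dense bins had none. Near a protein-coding transcript start the share was 36 of 94 (38.3%, interval 28.5 to 48.9). Of 229 knockout promoter peaks 119 had no overlapping wild-type peak (52.0%, interval 45.3 to 58.6), where 52.7% of all knockout peaks had none.

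The strongest promoter peaks were shared, as the strongest peaks elsewhere were. All 20 wild-type members with a fold enrichment of 15 or more were overlapped by a knockout peak, and so were all 37 such knockout members, while 16 of 18 wild-type members with a fold under 6 (88.9%) were not. Other peaks of the lists were much the same: at a fold of 15 or more, 449 of 449 (wild-type) and 669 of 673 (knockout) were overlapped, and 145 of 175 wild-type ones under a fold of 6 (82.9%) were not. Gm10801 and Gm10800, neighbouring gene models on chromosome 2, and Gm10719 on chromosome 9 stood at the upper limit, 82 (wild-type) and 78 (knockout) fragments. The Gm10719 peak was 38410 bp wide (wild-type) and 38404 bp wide (knockout), and all bases around its summit were repeat-masked. Outside those gene models the highest was at Rps29, a ribosomal protein gene, 147 bp upstream of its start and within Rn7s1, a 7SL RNA gene, with 58 (wild-type) and 61 (knockout) fragments, and a second peak 372 bp upstream held 40 and 49. These values put the Rps29 flank near the top of both lists in the same order.

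Litaf, an endosomal protein gene induced by lipopolysaccharide, had 54 fragments (wild-type) and 55 (knockout). Oasl1, an interferon-induced gene, had 52 and 51. Ybx3, a cold-shock domain protein gene, had 46 and 53, and its summit lay 675 bp inside a processed transcript. Ncoa1, a coactivator of steroid receptors and the strongest member with an octamer, had 40 and 49. Izumo1, which sperm need to fuse with the egg, had 39 and 45, Ank1, a membrane skeleton adaptor, 42 and 42, and Phf21a, a chromatin reader, 40 and 32. Further down, Npm2, an oocyte chromatin protein gene, had 23 and 30 fragments, the vomeronasal receptor gene Vmn2r4 26 and 26, Naaa, a lysosomal acid amidase gene, 25 and 25, and Lmln 24 and 26. Among these members the knockout was higher by 9 fragments at Ncoa1, and the wild-type by 8 at Phf21a.

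Summits of overlapping promoter peaks were nearly at the same base. There were 110 pairs, made of 109 wild-type and 110 knockout members, with a median of 3 bp between summits, and 97 pairs (88.2%) were within 10 bp. The knockout had more fragments in 73 pairs (66.4%), the wild-type in 28, and 9 were equal, where the knockout had more in 68.5% of all overlapping pairs outside dense bins. The median ratio of the knockout fold to the wild-type fold was 1.15 (quartiles 0.984 and 1.35), and 1.18 in pairs that were not at promoters. Pearson's r of the log2 fold over the 110 pairs was 0.875, as a description over peaks of the same 2 samples. Wdr26, a ubiquitin ligase subunit gene, had the largest ratio with 8 (wild-type) and 20 (knockout) fragments, and Trpv4, a calcium-permeable channel gene, followed with 10 and 23. At the other end, Plcb4, a phospholipase C gene, had 14 and 8, and Trrap, a scaffold of histone acetyltransferase complexes, 12 and 7. The Wdr26, Trpv4 and Trrap summits had no protein-coding transcript start within 1 kb.

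The direction of these differences varied with the sequence under the summit. Each promoter peak was put in the first class that held, within 40 bp of the summit: a repeat word (AATCCCAG or GAGGCTGA), simple sequence (a run of at least 12 equal bases or at least 5 repeats of a unit of 2 to 6 bases), CCAAT, or none of these. The classes were chosen after the sequences had been seen. In 44 pairs with a repeat word the knockout had more fragments in 41 and the wild-type in 2, with a median fold ratio of 1.29. In 25 pairs on simple sequence the wild-type had more in 16 and the knockout in 5, with a median of 0.873. Pairs with none of these, 39 in number, were higher in the knockout in 25 and in the wild-type in 10. Away from promoters, pairs with a repeat word were higher in the knockout in 466 of 530 (87.9%), with a median ratio of 1.30. There the 567 pairs on simple sequence had no such lean: the knockout was higher in 253 (44.6%) and the wild-type in 247 (43.6%), with a median ratio of 0.998. Median GC content within 100 bp was 48.3% at 45 overlapped wild-type members with a repeat word (range 36.3% to 63.2%). At all 38 wild-type members on simple sequence, which include members not overlapped, it was 48.0% (range 26.9% to 74.6%). Whether GC content bears on the direction was not tested.

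**Figure D2:**
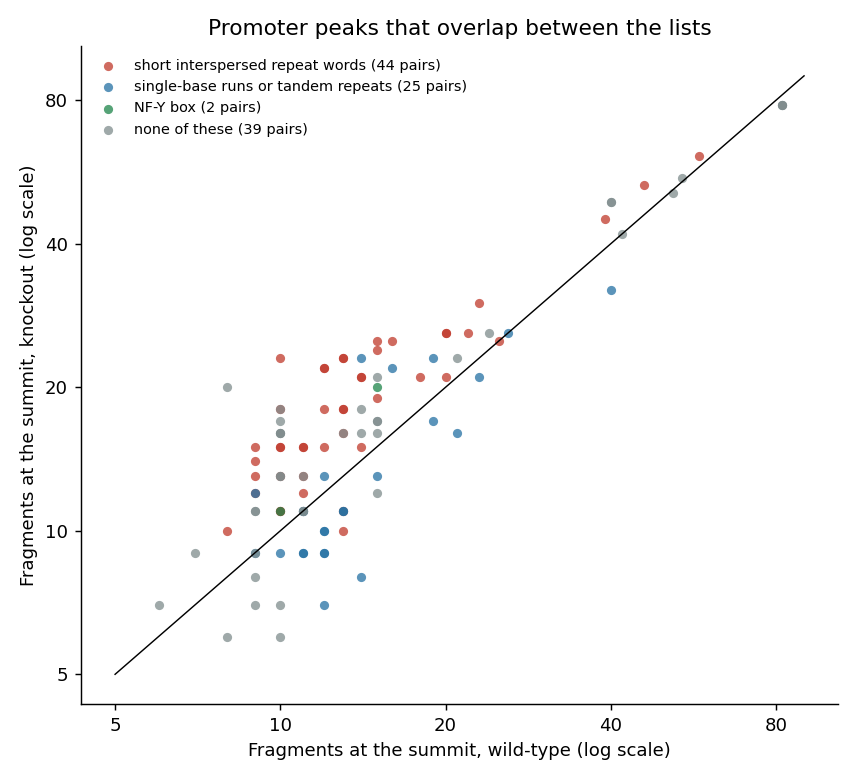
Fragments at the summit of 110 pairs of overlapping promoter peaks, wild-type on the x axis and knockout on the y axis, both on log scales, coloured by the sequence class within 40 bp of the summit, with the line of equal values. Pairs with a repeat word lie above the line in 41 of 44 cases, and pairs on single-base runs or tandem repeats below it in 16 of 25.

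Repeat words were at many promoter summits of both lists and at few of the wild-type summits without a knockout peak. AATCCCAG, on either strand, was within 40 bp of the summit in 36 of 110 overlapped wild-type members (32.7%, interval 24.1 to 42.3), in 36 of 110 overlapped knockout members (32.7%), in 31 of 119 knockout members not overlapped (26.1%, interval 18.4 to 34.9) and in 3 of 44 wild-type members not overlapped (6.82%, interval 1.43 to 18.7). In 2150610 windows of the same length tiled over the 1 kb on both sides of 89619 starts the share was 1.17%. GAGGCTGA was in 21, 20, 15 and 3 peaks of those groups (19.1%, 18.2%, 12.6% and 6.82%), against 0.675% of promoter windows. Away from promoters AATCCCAG was at 16.7% of overlapped wild-type peaks and 4.63% of those not overlapped. All words here were picked after the sequences had been seen, so their shares are a description.

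The letters before the shared word came in more than 1 spelling. CTGTAATC, as 7SL-derived Alu elements of primates spell it, was at 21 wild-type members (13.6%) and 41 knockout members (17.9%), against 0.276% of promoter windows. CTTTAATC, the usual B1 spelling, was at 14 (9.09%) and 22 (9.61%), against 0.789%. Other peaks of the lists held CTGTAATC in 9.08% (wild-type) and 11.1% (knockout) and CTTTAATC in 5.81% and 6.89%. Both words can overlap AATCCCAG by the letters AATC. Repeat-masked sequence was not left out by the authors' calls, and 31 wild-type members (20.1%) and 34 knockout members (14.8%) lay in sequence whose 31-base words had a median of more than 1 copy in the assembly.

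**Figure D3:**
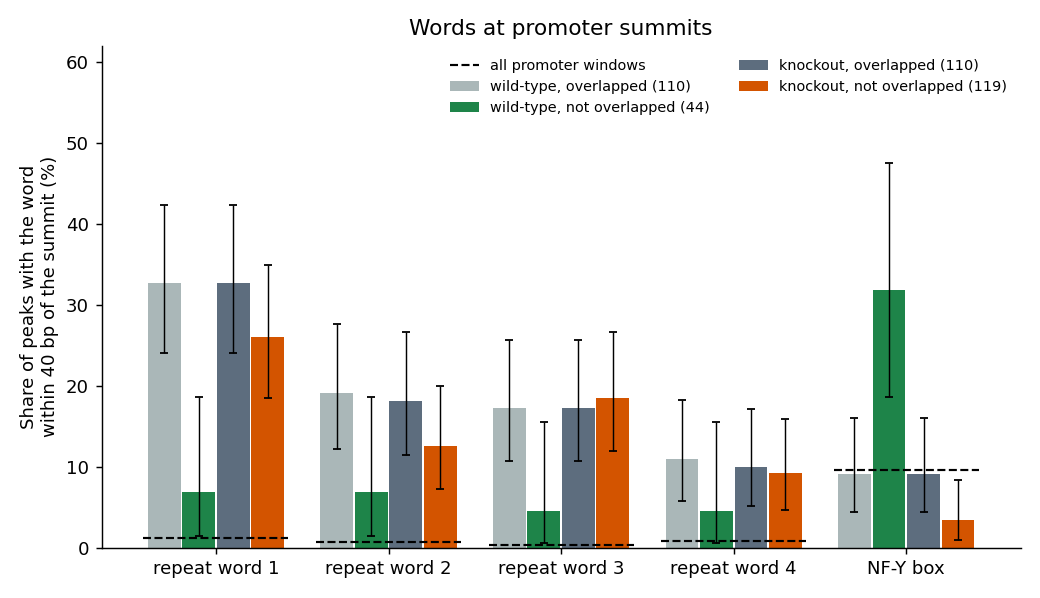
Share of promoter peaks with a word within 40 bp of the summit, on either strand, in the 4 parts of the lists, with exact 95% binomial intervals, and the share of all promoter windows of 81 bp as dashed lines. Repeat words 1 to 4 are AATCCCAG, GAGGCTGA, CTGTAATC and CTTTAATC, and the NF-Y box is CCAAT, which was at 31.8% of wild-type peaks not overlapped and at 3.36% of knockout peaks not overlapped.

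Wild-type peaks without a knockout peak were small, near starts and often had a CCAAT box within 40 bp of the summit. That window can reach beyond the called peak. The 44 such members had 5 to 12 fragments with a median of 8.5, against 12.5 in the overlapped members, and 24 lay within 250 bp of a start (54.5%), against 23 of 110 overlapped members (20.9%). Their median CpG ratio was 0.395 against 0.199, and a median of 13.9% of their bases were masked against 50.2%. CCAAT on either strand was within 40 bp of the summit in 14 of 44 (31.8%, interval 18.6 to 47.6), in 10 of 110 overlapped wild-type members (9.09%, interval 4.45 to 16.1), in 10 of 110 overlapped knockout members and in 4 of 119 knockout members not overlapped (3.36%, interval 0.923 to 8.38). All promoter windows of that length held it in 9.59%, and wild-type peaks away from promoters that were not overlapped in 9.46%. The longer word CCAATCA was in 8 of the 44 (18.2%, interval 8.19 to 32.7) and in none of the 110 overlapped wild-type or 229 knockout members, against 0.906% of promoter windows.

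Windows near starts in general held CCAAT about as often as all promoter windows, and CCAATCA more often. In windows within 250 bp of 51657 protein-coding transcript starts CCAAT was in 9.83% and CCAATCA in 1.49%, against 9.59% and 0.906% of all promoter windows. Of members within 250 bp of such a start, 12 of 20 wild-type members not overlapped held CCAAT (60.0%, interval 36.1 to 80.9), 2 of 14 overlapped ones did, and 0 of 11 knockout members not overlapped did (upper bound 28.5%). The 14 peaks with CCAAT lay at 10 promoters, so several share a promoter and are not independent.

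The 14 peaks had 6 to 10 fragments each. Hist1h2ag and Hist1h2bj, divergent genes for histones H2A and H2B, had 2 such peaks of 10 fragments each, 61 bp and 80 bp upstream, and 1 more peak of 8 fragments 612 bp downstream of a start, outside genes, that is also near Hist1h4i. H3f3b, a gene for histone H3.3, had 9 fragments 148 bp upstream, with the octamer outside the peak but within 100 bp of the summit, and Hist1h3f 7 fragments. Zswim4, a zinc finger protein gene, had 9 fragments at each of 2 summits, 46 and 211 bp upstream. Atp5b, the beta subunit of ATP synthase, had 8 and 6 fragments at 186 and 63 bp upstream, and Dnm2, a GTPase of endocytosis, 8 and 7 at 45 and 148 bp upstream. Flad1, which makes FAD, had 8 fragments, Rnf5/Agpat1 7, Cdca2/Kctd9 7 and Ppm1b, a protein phosphatase gene, 6. The nearest knockout summit was 8.60 to 887 kb away. The smallest knockout peak had 5 fragments, so at these promoters the knockout list shows only that the called limit was not met.

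Genes of the wild-type alone had peaks of up to 12 fragments. The 10 highest by fold, by the rule for named genes, were 1110017D15Rik with 12 fragments, Hectd4 and Gm20594 with 11, and Shisa4, both summits of Hist1h2ag/Hist1h2bj, Gm10267, Nmi, Ltk and Cbr4 with 10. Sp1, a factor that binds GC boxes, had 7 fragments 238 bp upstream of its start, and Has2, a hyaluronan synthase gene, 7 fragments 918 bp upstream on simple sequence. Sp1 and Has2 were picked after their values were seen. Coil had a peak in each list, 90 bp apart and not overlapping, and overlapping peaks elsewhere at its start, so it counted as shared.

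Apoe, whose product both genotypes lack, had 3 wild-type promoter peaks of 8, 7 and 6 fragments, at 66 bp upstream and 542 and 40 bp inside its starts, the first at chr7:19699225-19699278. No knockout peak overlapped them, and the nearest knockout summits were 2.93, 0.924 and 2.80 kb away. The neighbouring gene Tomm40, a mitochondrial import channel gene, had 2 knockout promoter peaks of 7 and 5 fragments and its nearest wild-type summits were 0.434 and 1.09 kb away.

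Knockout peaks without a wild-type peak were taller than the wild-type ones of that kind and split otherwise over the sequence classes. The 119 members had 5 to 19 fragments with a median of 10, and 29 (24.4%) were within 250 bp of a start. Their median CpG ratio was 0.164 and 46.3% of their bases were masked. By class 40 held a repeat word, 20 simple sequence, 3 CCAAT and 56 none of these, where the 44 wild-type members not overlapped split as 6, 13, 14 and 11. Away from promoters, knockout peaks not overlapped held these classes in 24.2%, 16.5%, 6.67% and 52.6%, and wild-type ones in 6.95%, 41.7%, 7.14% and 44.2%, so repeat words were more frequent among the former in the rest of the lists too. The overlapped members split as 45, 25, 2 and 38 in the wild-type and 44, 25, 2 and 39 in the knockout.

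The highest knockout-alone peak was at Asic3, an acid-sensing ion channel gene, with 19 fragments 834 bp upstream. Hba-a2, an alpha-globin gene, had 17 fragments 764 bp upstream, Slc45a4, a solute carrier gene, 17 fragments 651 bp inside, and Podn, which encodes a matrix proteoglycan, 17 fragments 500 bp inside. Ogg1, the glycosylase that removes 8-oxoguanine, Rhog, a small GTPase gene, and Spink8, a protease inhibitor gene, had 15 each. Glud1, which encodes glutamate dehydrogenase, Zgrf1 and Eya3 had 14 each, tied with Ccdc136 and Mfge8, which the order by position left out of the 10. Of these 10, Asic3, Slc45a4, Ogg1 and Spink8 held a repeat word and Rhog simple sequence. The nearest wild-type summit was 653 kb away at Podn and 2.95 kb away at Rhog.

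**Figure D4:**
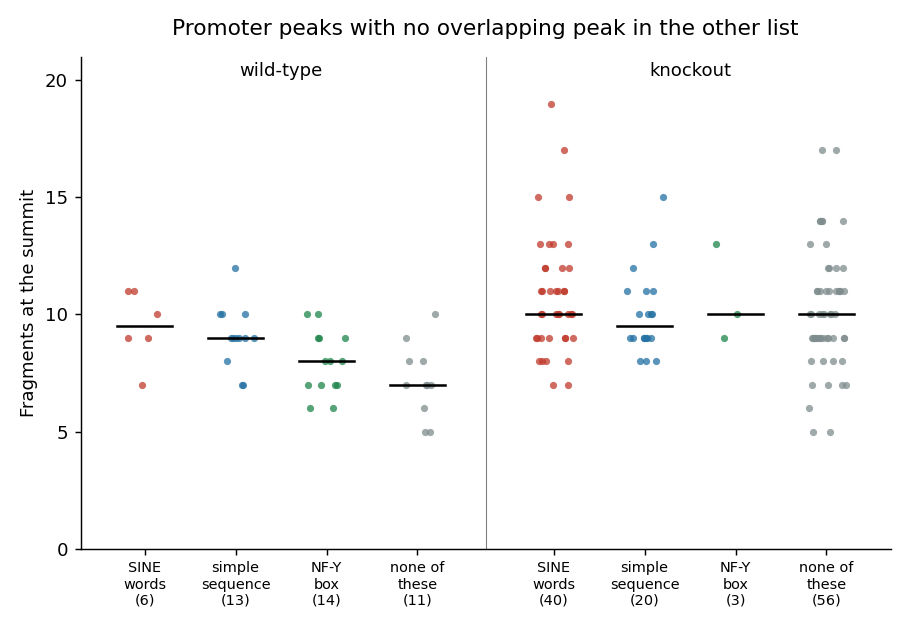
Fragments at the summit of promoter peaks with no overlapping peak in the other list, by sequence class, 44 in the wild-type (left) and 119 in the knockout (right), 1 point per peak with the median as a line. Wild-type points reach 12 fragments and knockout points 19, and the NF-Y box class holds 14 wild-type and 3 knockout peaks.

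The octamer was within 100 bp of 5 of 154 wild-type summits (3.25%, interval 1.06 to 7.41) and of 3 of 229 knockout summits (1.31%, interval 0.271 to 3.78). Other peaks of the lists held it in 2.61% and 2.87%, and promoter windows of 201 bp in 0.821%. Ncoa1 held it in both lists, and so did Lep, the leptin gene, with 15 (wild-type) and 17 (knockout) fragments, 872 and 863 bp upstream. In the wild-type alone it was at H3f3b, Cdca2/Kctd9 and 1110017D15Rik, and in the knockout alone at Setdb2, a histone methyltransferase family gene, with 9 fragments. With 1 mismatch allowed the order of the lists turned, with 13.0% of wild-type and 15.7% of knockout summits. The share of promoter windows is for the exact octamer alone, so whether the shares with 1 mismatch exceed their background was not tested. At 500 bp the exact octamer was at 2 of 77 wild-type and 0 of 105 knockout summits. With bins of 10 or more summits left out it was at 3 of 148 and 1 of 221.

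Few genes of the lists drawn up for smooth muscle and lesion biology were marked, as few of all genes were. Of 20589 genes, 263 (1.28%) were marked in either list. The counts hold for the genes on those lists alone: outside them Trpv4 and the matrix gene Ltbp4 were marked in both, Podn and the cytokine gene Il17f in the knockout alone and Has2 in the wild-type alone, and these 5 were chosen for mention here after their values were seen. Of these, Trpv4 and Il17f had no protein-coding transcript start within 1 kb of the summit. Among marker genes of cell types none of 8 SMC, 7 endothelial, 6 T cell and 5 fibroblast genes was marked, and of 7 macrophage genes Cd14, a lipopolysaccharide co-receptor, was marked in both lists with 10 and 13 fragments. These lists mark cells by their RNA, so an absent peak says nothing on which cells were there. None of 61 pluripotency, POU, SOX and KLF genes was marked, nor any of 35 matrix, 34 guidance and migration, 38 growth factor and 37 chemokine, cytokine and inflammation genes. Of 30 contractile and actin genes Actb was marked, in the knockout alone, with 10 fragments 13 bp upstream of a processed transcript, on simple sequence in an untranslated region. Of 37 lipoprotein and cholesterol genes Apoe was marked in the wild-type alone and Cyp27a1, sterol 27-hydroxylase, in both, with 15 and 19 fragments on a repeat word. The Cyp27a1 summits had no protein-coding transcript start within 1 kb. Of 37 chromatin and cell cycle genes Dnmt3a, a DNA methyltransferase gene, was marked in both with 13 and 16 fragments, and Tet1, which oxidises 5-methylcytosine, in the wild-type alone with 8 on simple sequence.

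Among gene families by symbol, 5 of 76 histone genes were marked, all in the wild-type alone, and histone genes made up 1.90% of marked genes against 0.369% of all genes. Hist1h2ag, Hist1h2bj and Hist1h4i share peaks, so these 5 genes rest on 5 peaks at 3 places. Over all 20589 genes the share marked was 1.28%, to be set beside the family counts that follow, which were not tested. Of 1125 olfactory receptor genes none was marked. Zinc finger protein genes were 0.760% of marked and 2.08% of all genes, with Zfp607a in both and Zfp831 in the knockout alone. Of 326 vomeronasal receptor genes 3 were marked, Vmn1r178 and Vmn2r4 in both and Vmn1r203 in the wild-type alone. Numbered cDNA and Gm gene models were 5.70% of marked and 8.89% of all genes. Ribosomal protein symbols gave 2 of 94 genes, one of them Rps19bp1, solute carriers 4 of 355, respiratory chain and mitochondrial ribosome genes 1 of 181 (Atp5b), proteasome and ubiquitin genes 4 of 216 and genes with symbols of the Arhg, Rab, Rap, Ras and Dock series 4 of 175 (Arhgap42, Arhgef2, Rab14 and Rab6a).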

How the data were processed

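Oct4 ChIP-seq peak lists of 2 samples, 1 per genotype, were used as deposited. The authors mapped the reads with Bowtie (GRCm38.p6), dropped duplicate reads in SAMtools and ran MACS2 with q values under 0.05 as the limit. Each deposited list holds the fold enrichment, which is a ratio of pileups, a p-value and a q-value as -log10, and other values that give the offset of the summit. A further deposited list, named as the wild-type called over the knockout, repeats all 5455 wild-type entries and was not used further. Which control entered the calls is not given in the sources used here. All folds fit 1 expected pileup per sample, so no local correction is visible, and whole fragments were recovered to within 1.11e-05 of a fragment.

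Starts came from GENCODE M21 (22028 protein-coding genes), and every transcript of such a gene counted. Peaks overlapped at 1 bp or more. Sequences were RefSeq GRCm38.p6. Some sequences under summits are not reported here. Copies are the median count of 31-mers in the assembly. Medians and exact binomial intervals were computed with Python 3.11.15, numpy 2.4.6, pandas 2.3.3, scipy 1.17.1 and matplotlib 3.10.9, and the steps were tested on simulated data.

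Genes named were, in each list, the 10 members with the highest fold, the 10 highest not overlapped, the 5 nearest to a start, the 10 shared genes with the highest summed folds, those in a gene list, those just inside or outside 1000 bp and those with an octamer. Other genes named, such as Npm2, Vmn2r4, Naaa, Lmln, Tomm40, those with extreme fold ratios and those with CCAAT, were chosen after their values were seen. The members, gene lists and families were chosen with earlier results of these data known. Alternatives covered the distance, the bins, the q and fold limits, the starts, the overlap and the octamer. Added after seeing the data were the protein-coding transcript starts and peaks in single-copy sequence. The other assays of the series were not analysed here.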

Additional observations from a re-analysis of the deposited data

How the results depend on the processing

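No paired analysis was possible because there was 1 sample per genotype, and no replicate could be left out. At 500 bp there were 77 wild-type and 105 knockout promoter peaks, with 50 genes in both, 26 in the wild-type alone and 51 in the knockout alone, 62.3% of wild-type peaks overlapped and 0 knockout octamers. At 2000 bp there were 259 and 440 peaks, with 203 genes in both and 228 in the knockout alone. With no bin left out there were 233 wild-type peaks. At a fold of 8 or more there were 79 and 139 peaks, 68 genes in both and 12 in the wild-type alone, 96.2% and 64.7% of peaks overlapped, and median folds of 10.3 and 10.9, by construction. With 1 start per gene there were 64 and 67 peaks, 37 genes in both, 28 in the wild-type alone and 31 in the knockout alone, 51.6% of wild-type peaks overlapped and 0 knockout octamers. With all gene types there were 271 and 389 peaks, 207 genes in both, 64 in the wild-type alone and 181 in the knockout alone. Protein-coding transcripts alone, a setting added after seeing the data, gave 94 and 122 peaks, 62 genes in both and 58 in the knockout alone, and 61.7% of wild-type peaks overlapped. The octamer with 1 mismatch was at 13.0% of wild-type and 15.7% of knockout summits, with no promoter-window share to set beside it. The exact octamer within 250 bp was at 5.84% of wild-type and 4.37% of knockout summits, against 2.03% of promoter windows of 501 bp. Of 121 values under alternatives, 82 stayed within the interval of the value reported, or within 1.5 times it for counts. Depth limits the lists from below: a summit of 5 fragments was the smallest called, so promoters with fewer are not seen in either list, and which peaks of 5 to 12 fragments would return in another sample is not known.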
